A study of Mus musculus with 6 samples.

Results

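The orexin and melanin-concentrating hormone (MCH) system was followed here through 5 genes: the peptide genes Hcrt and Pmch and the receptor genes Hcrtr1, Hcrtr2 and Mchr1. Its members were taken as every array probe whose gene name in the scanner output was one of those symbols. This gave 9 probes of 5 genes, out of 56605 probes of 37074 gene names. The RNA came from the hypothalamus of male C57BL/6J diet-induced obese (DIO) mice, a wild-type inbred strain made obese by feeding. All animals were fed a high-fat diet (60 kcal% fat), which per the methods ran for 16 weeks from 6 weeks of age. The 3 vehicle arrays and the 3 GSK-J4 arrays each came from separate mice. GSK-J4 inhibits the Kdm6 demethylases, which remove the repressive mark H3k27me3. It was given at 30 mg/kg. The series text places the measurement 4 d after exposure, while the methods describe daily i.p. injections at zeitgeber time (ZT) 2 h over 21 d and tissue collection at ZT 6 h. Which of these lengths applies to the arrays was not stated in the sources used here.

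Orexin neurons and MCH neurons are separate cell groups of the lateral hypothalamic area that send axons across the brain. Hcrt encodes prepro-orexin, which is cut into orexin A and orexin B, peptides that keep animals awake and promote food seeking. Pmch encodes prepro-MCH, the source of MCH, which promotes feeding, weight gain and rapid eye movement sleep. Hcrtr1 and Hcrtr2 encode the orexin receptors. The first is best known from the noradrenergic locus coeruleus, and the other from the histamine neurons of the tuberomammillary nucleus. Mchr1 encodes the MCH receptor of rodents, which sits on neuronal primary cilia and couples mainly to inhibitory G proteins. The question asked of the arrays was whether transcripts of these ligands and receptors differed between GSK-J4 and vehicle.

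Each probe is a strand of 60 bases, and its placement is given as the array design has it, on mouse genome build mm9. The brighter Hcrt probe, A_55_P2142341, lay at chr11:100623007-100623066 on the minus strand, and the other, A_55_P2110316, at chr11:100622484-100622543. The only Pmch probe, A_52_P418814, lay at chr10:87555031-87555090 on the plus strand. The Hcrtr1 probes were A_51_P209585 at chr4:129808226-129809914 and A_55_P2155946 at chr4:129807461-129807520, both on the minus strand. The Hcrtr2 probes were A_55_P2939543 at chr9:76074002-76074061, A_52_P464729 at chr9:76078242-76078301 and A_52_P469290 at chr9:76094212-76102269, all on the minus strand. The Mchr1 probe, A_51_P376299, lay at chr15:81068324-81068383 on the plus strand. For 2 of the 9 probes the placement ran over more than 60 bases (1689 bases for A_51_P209585 and 8058 bases for A_52_P469290), so by these coordinates they join separate exons across an intron.

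Of the 9 probe records, 7 were among the RefSeq transcripts listed for the same symbol. A receptor probe of each kind is printed with its G and C bases in capitals, because the difference between the groups moved with probe base composition over the whole array.
Hcrtr1 A_51_P209585: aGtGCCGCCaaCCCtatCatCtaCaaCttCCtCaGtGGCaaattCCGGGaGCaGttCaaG
Hcrtr2 A_52_P469290: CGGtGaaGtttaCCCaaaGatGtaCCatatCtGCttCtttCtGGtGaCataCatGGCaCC
Mchr1 A_51_P376299: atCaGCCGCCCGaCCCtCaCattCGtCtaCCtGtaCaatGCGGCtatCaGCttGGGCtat
Capitals make up 51.7% of the Hcrtr1 probe, 45% of the Hcrtr2 probe and 55% of the Mchr1 probe. The printed Hcrtr2 probe was too dim to be tested, and the Hcrtr2 probe tested below, A_55_P2939543, has 35%.

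The arrays differed in brightness with the treatment. On the vehicle arrays the signal's 75th percentile lay between 787 and 916, on the GSK-J4 arrays between 406 and 461, and 62.8% to 63.6% of probes were well above background on the former against 57.7% to 58.7% on the latter. All vehicle arrays were on 1 slide and all GSK-J4 arrays on another, so the effects of slide and of GSK-J4 cannot be told apart. Values are the deposited log2 signals, which the authors had quantile normalized. Without scaling, the median difference over the 34443 probes kept for testing was -0.87, and after quantile normalization it was 0.02. The choroid plexus markers set vehicle replicate 1 apart: the summed level of its 5 markers (Ttr, Kl, Folr1, Kcne2 and Clic6) ranged from 2853 to 102700 in the vehicle group, the highest value being that array, and from 2432 to 11671 in the GSK-J4 group. Leaving that array out left the Hcrt difference at 0.79 and those of the Hcrtr1 probes at 1.07 and 0.98, close to the values with all arrays.

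The peptides that define the lateral hypothalamic area were at the edge of detection in this tissue. Pmch was well above background on 1 of 3 vehicle arrays and 2 of 3 GSK-J4 arrays. Hcrt was well above background on all 6 arrays by A_55_P2142341 and on 0 of 6 by A_55_P2110316. The lowest signal that counted as well above background was 19.3 to 22.8 on the vehicle arrays and 13.5 to 18.2 on the GSK-J4 arrays, and the brighter Hcrt probe read 24.9 to 40.8. Among 10 markers of medial hypothalamic nuclei, 7 were kept, meaning that every array of 1 or both groups had them well above background. Of these, Pomc, Ghrh, Nr5a1, Oxt and Vip were well above background on all 6 arrays, and Agrp and Kiss1 were kept as well. Vip had means of 9.67 in the vehicle group and 9.80 in the GSK-J4 group. The vehicle means of the other kept medial markers were lower: 7.94 (Pomc), 6.28 (Nr5a1), 5.70 (Oxt), 4.86 (Ghrh), 4.74 (Agrp) and 4.24 (Kiss1). Avp (vasopressin) and Fezf1 were not kept, and Sim1, a transcription factor of the paraventricular nucleus, was well above background on 0 of 6 arrays. Avp and Sim1 each had 1 probe, of 73.3% and 23.3% GC, and whether base composition had a part in their detection was not tested. All 5 telencephalic markers reported, among them the cortical transcription factors Neurod6 and Tbr1, were well above background on all 6 arrays. Their vehicle means were 12.4 (Neurod6), 12.4 (Tbr1), 10.5 (Rgs9), 8.23 (Drd1) and 4.88 (Adora2a). None of 5 pituitary markers was kept. Detection of Pmch was thus partial, and that of Hcrt rested on the brighter of its probes alone, at a dim signal. The members are called by their genes below. Whether tissue of other brain regions had a part in this was not tested.

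**Figure D1:**
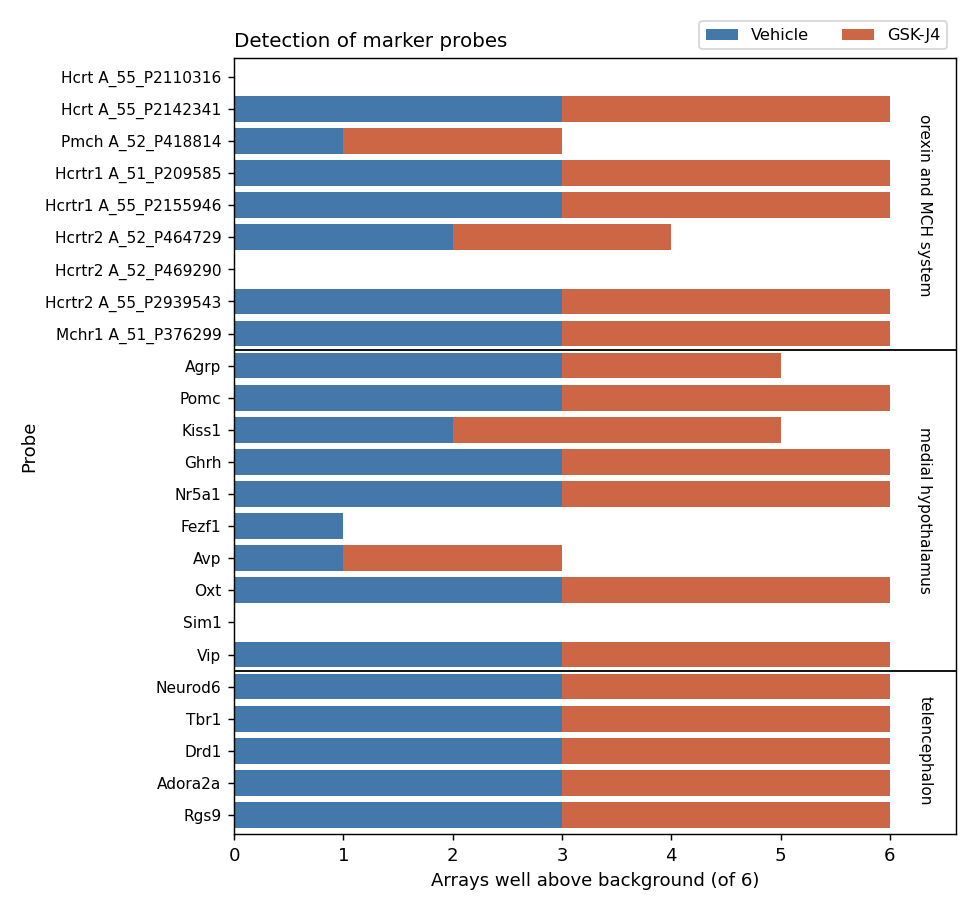
Number of arrays on which each probe was well above background (x axis, out of 6; blue, vehicle; orange, GSK-J4), for the 9 member probes, medial hypothalamic markers and telencephalic markers (the brightest probe of each marker). Pmch reached 3 of 6 arrays and Sim1 0 of 6, while the medial markers Pomc, Ghrh, Nr5a1, Oxt and Vip and the 5 telencephalic markers reached 6 of 6.

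Of the 5 member probes kept for testing, 0 passed an adjusted p of 0.05 in limma, where 16.8% of all kept probes did. By the same model 3 of the 5 had an unadjusted p of at most 0.05, as did 36.5% of all kept probes, and these 3, the brighter Hcrt probe and both Hcrtr1 probes, were also at least 1.5-fold higher in the GSK-J4 group. That joint criterion was met in the higher direction by 4.79% of all kept probes (1651 of 34443), and in the lower direction by 2706 of them. In the same 3 probes all GSK-J4 arrays lay above all vehicle arrays, which held for 24.5% of all kept probes. The median difference of the 5 kept probes was 0.81. The arrays report RNA of the whole tissue piece, so fewer or more cells of a type and less or more RNA per cell cannot be told apart.

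Among the ligands, Hcrt had the higher mean in the GSK-J4 group but did not pass the test. The log2 value of A_55_P2142341 was 4.74, 4.72 and 4.82 on vehicle replicates 1, 2 and 3 and 5.62, 5.10 and 5.98 on GSK-J4 replicates 1, 2 and 3. The vehicle arrays were close together, the GSK-J4 arrays were spread over a wider range above them, and the groups did not overlap. The means were 4.76 ± 0.05 and 5.57 ± 0.44 (SD, n = 3 each), a difference of 0.81 ± 0.22 (SE), or 1.75-fold, with a 95% confidence interval of 0.26 to 1.35 (limma, adjusted p = 0.0586; exact permutation p = 0.1, two-sided). An exact test of 3 arrays against 3 cannot give a p below 0.1.

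Before scaling between arrays, the Hcrt signal was no higher with GSK-J4. The processed signal of A_55_P2142341 was 37.6, 40.8 and 39.0 on the vehicle arrays and 35.0, 24.9 and 40.8 on the GSK-J4 arrays. The groups overlapped, and the difference of the log2 means was -0.25 (exact permutation p = 0.3). Set against the median shift of all kept probes, this was 0.63. With normexp background correction, which added an offset of 50 to each corrected signal, the difference was 0.35 (limma, adjusted p = 0.0586). That offset is larger than any Hcrt signal above and narrows the log2 differences of dim probes by construction. Without GSK-J4 replicate 2 the difference was 1.04 with an adjusted p of 0.0222. The test was passed only once this lowest GSK-J4 array was left out, or once the filter kept only probes well above background on all 6 arrays (0.81, adjusted p = 0.0491).

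The other Hcrt probe, A_55_P2110316, gave values of 1.96, 2.24 and 1.86 on the vehicle arrays and 2.54, 1.92 and 1.85 on the GSK-J4 arrays. None of the 6 arrays had it well above background, the groups overlapped, and no fold is given.

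Pmch had the higher mean with GSK-J4 too, but its probe was not kept for the limma test. The log2 value was 4.17, 3.50 and 3.95 on the vehicle arrays and 4.67, 4.02 and 4.97 on the GSK-J4 arrays. GSK-J4 replicate 2 lay below vehicle replicate 1, so the groups overlapped. The means were 3.87 ± 0.34 and 4.55 ± 0.48 (SD, n = 3 each), and the difference of 0.68 had an exact permutation p of 0.2. The processed signal behind them was 25.1, 17.2 and 21.1 on the vehicle arrays and 18.1, 12.0 and 20.2 on the GSK-J4 arrays, and without scaling the difference was -0.35. When all probes were tested with no filter on dim ones, the adjusted p of Pmch was 0.234 (limma).

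**Figure D2:**
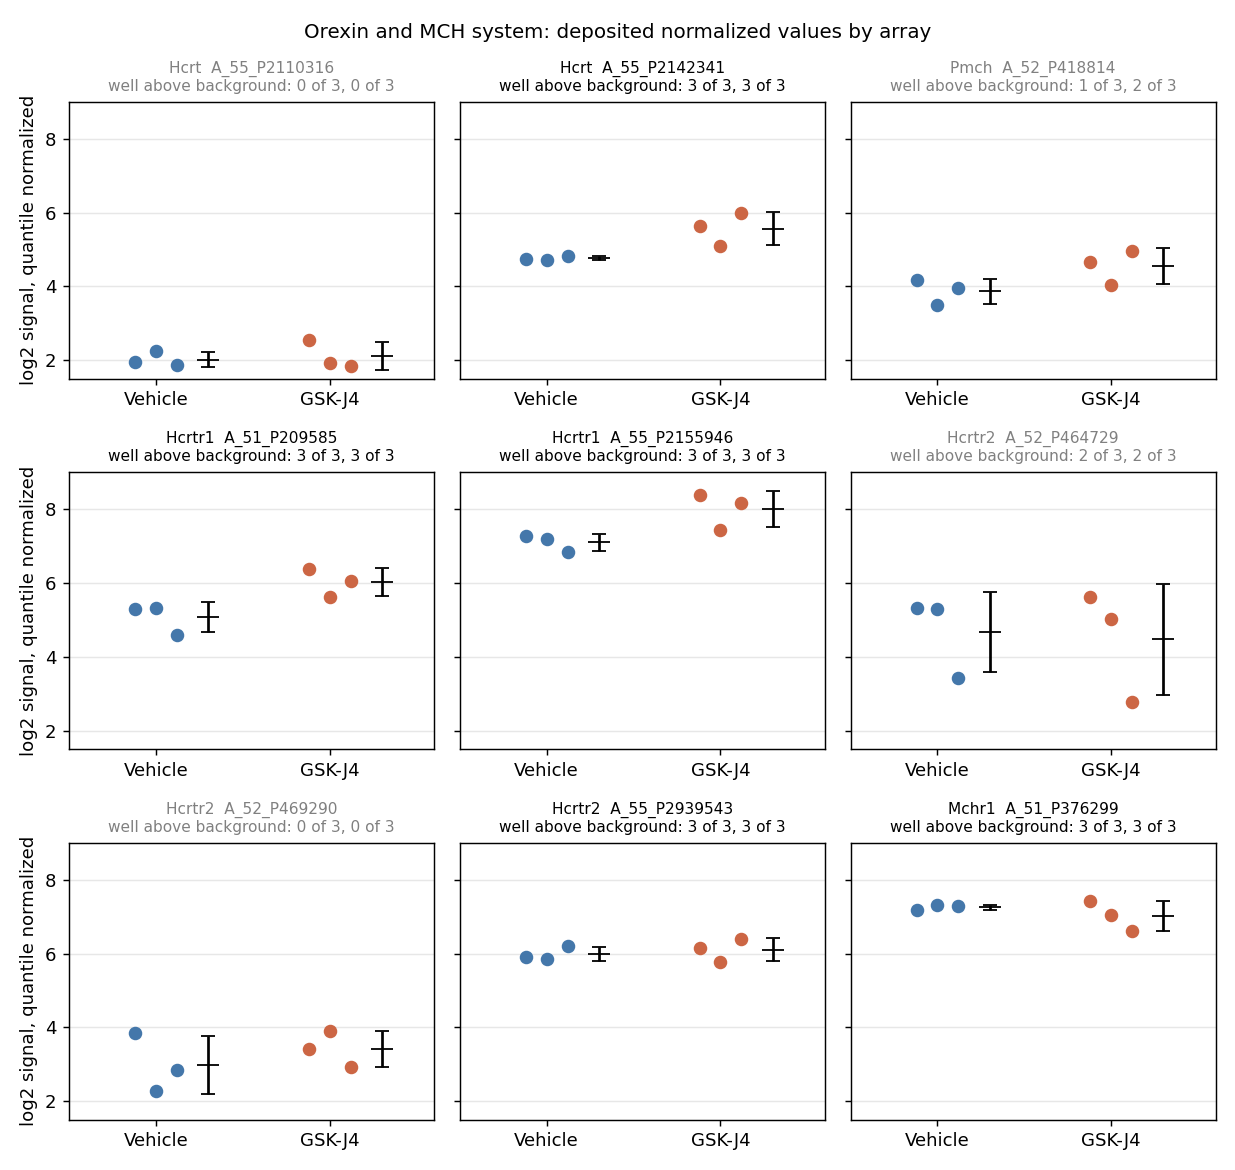
Log2 quantile-normalized signal (y axis) of the 9 member probes on each vehicle (blue) and GSK-J4 (orange) array, replicates 1 to 3 from left to right; black bars show mean ± SD of 3 arrays, and grey titles mark the 4 probes not kept for testing. The groups do not overlap in the brighter Hcrt probe and in both Hcrtr1 probes.

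Of the orexin receptors, Hcrtr1 had the higher mean in the GSK-J4 group by both of its probes, and neither passed the adjusted test. A_55_P2155946 read 7.26, 7.19 and 6.85 on the vehicle arrays and 8.38, 7.45 and 8.18 on the GSK-J4 arrays. The lowest GSK-J4 array, replicate 2, stood just above the highest vehicle array. The means were 7.10 ± 0.22 and 8.00 ± 0.49 (SD, n = 3 each), a difference of 0.90 ± 0.27 (SE), or 1.87-fold, with a 95% confidence interval of 0.25 to 1.56 (limma, adjusted p = 0.0682; exact permutation p = 0.1). Without GSK-J4 replicate 2 the difference was 1.18 with an adjusted p of 0.0248, the only left-out array that took this probe past the test.

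The intron-spanning Hcrtr1 probe, A_51_P209585, gave 5.29, 5.31 and 4.60 on the vehicle arrays and 6.38, 5.62 and 6.06 on the GSK-J4 arrays. Vehicle replicate 3 was the lowest array in both Hcrtr1 probes, GSK-J4 replicate 1 was the highest in both, and the groups did not overlap in either. The means were 5.07 ± 0.41 and 6.02 ± 0.38 (SD, n = 3 each), a difference of 0.95 ± 0.27 (SE), or 1.94-fold, with a 95% confidence interval of 0.28 to 1.63 (limma, adjusted p = 0.0644; exact permutation p = 0.1). With normexp background correction and its offset of 50, which narrows differences of dim probes, this difference was 0.25 (limma, adjusted p = 0.225). That of the brighter A_55_P2155946 was 0.62 (adjusted p = 0.0758).

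As for Hcrt, the unscaled Hcrtr1 signals did not separate the groups. A_55_P2155946 read 215, 228 and 158 on the vehicle arrays and 243, 128 and 191 on the GSK-J4 arrays, a log2 difference of -0.13 (exact permutation p = 0.7). A_51_P209585 read 55.0, 61.7 and 33.1 on the vehicle arrays and 58.9, 36.3 and 43.4 on the GSK-J4 arrays, a log2 difference of -0.09 (exact permutation p = 0.9). The higher normalized values of Hcrt and Hcrtr1 in the GSK-J4 group thus went with signals that fell less between the groups than the median probe did, by 0.63 for Hcrt and by 0.75 and 0.78 for the Hcrtr1 probes on the log2 scale.

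Hcrtr2 did not differ detectably. A_55_P2939543, its only kept probe, read 5.90, 5.85 and 6.20 on the vehicle arrays and 6.15, 5.77 and 6.39 on the GSK-J4 arrays. GSK-J4 replicate 2 was the lowest of the 6 arrays and the groups overlapped. The means were 5.99 ± 0.19 and 6.10 ± 0.31 (SD, n = 3 each), a difference of 0.12 ± 0.18 (SE) with a 95% confidence interval of -0.34 to 0.57 (limma, adjusted p = 0.67; exact permutation p = 0.7). The sign was not stable: the difference was -0.0025 with scaling to the 75th percentile and -0.02 without GSK-J4 replicate 3.

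The other Hcrtr2 probes were dimmer. A_52_P464729 was well above background on 2 of 3 arrays of each group and read 5.32, 5.30 and 3.43 on the vehicle arrays and 5.62, 5.02 and 2.77 on the GSK-J4 arrays. Replicate 3 of each group was far below the rest, and the difference of -0.21 was within that spread (exact permutation p = 0.8). It ranged from -0.84 to 0.64 with 1 array left out and had no stable sign. A_52_P469290, the other intron-spanning probe, was well above background on 0 of 6 arrays, at 3.84, 2.27 and 2.85 on the vehicle arrays and 3.40, 3.91 and 2.93 on the GSK-J4 arrays, so no fold is given.

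Mchr1 was the only kept member with a lower mean in the GSK-J4 group, and it did not pass the test. Its probe read 7.18, 7.31 and 7.29 on the vehicle arrays and 7.42, 7.04 and 6.61 on the GSK-J4 arrays. The vehicle arrays were close together, and the GSK-J4 arrays lay on both sides of them, with replicate 3 the lowest. The means were 7.26 ± 0.07 and 7.03 ± 0.40 (SD, n = 3 each), a difference of -0.23 ± 0.21 (SE) with a 95% confidence interval of -0.74 to 0.27 (limma, adjusted p = 0.445; exact permutation p = 0.4). In unscaled signal it read 203, 247 and 215 on the vehicle arrays and 121, 95.8 and 63.1 on the GSK-J4 arrays, a log2 difference of -1.29 in which the groups did not overlap (exact permutation p = 0.1). Against the median shift of all kept probes this was -0.42.

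**Figure D3:**
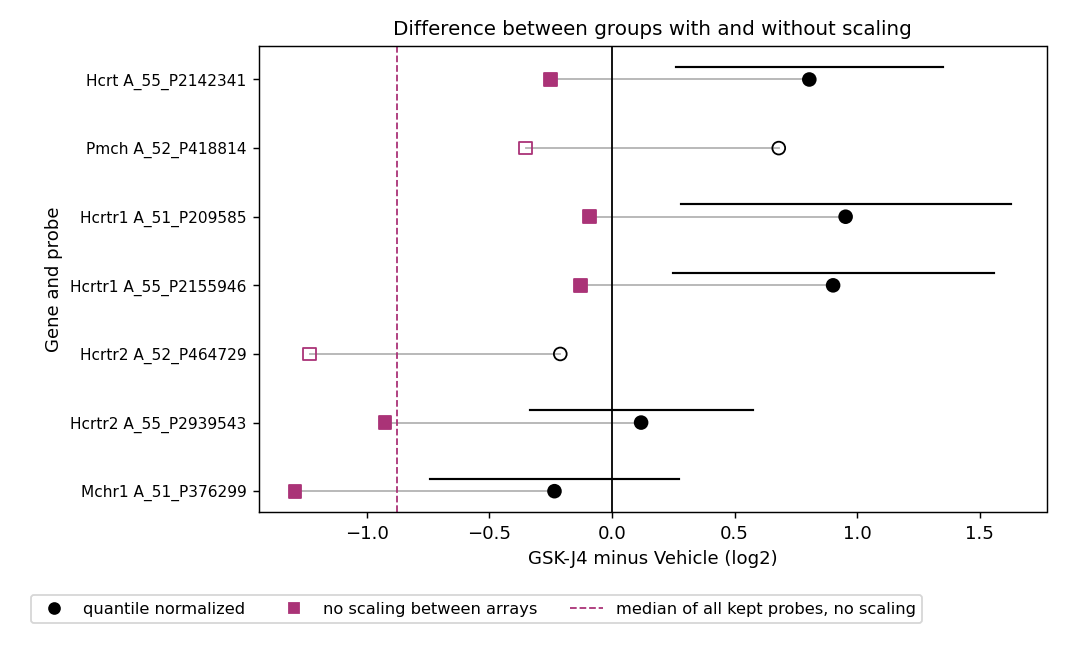
Difference between the groups (x axis, GSK-J4 minus vehicle, log2) for the 7 member probes well above background on at least 1 array, with quantile normalization (black circles; horizontal bars, 95% confidence interval of the 5 kept probes) and without scaling between arrays (purple squares); open symbols are probes not kept, and the dashed line is the median of all kept probes without scaling, -0.87. The Hcrt and Hcrtr1 differences lie above 0 with scaling and slightly below 0 without it, and Mchr1 lies below 0 in both.

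Probe base composition moved with the difference between groups over the whole array. Kept probes with the GC content of the kept Hcrtr2 probe, A_55_P2939543 (35%), had a median difference of -0.15, and 1.69% of them were called higher at an adjusted p of 0.05. Those with the GC content of the Hcrt probe (48.3%) had a median of 0.19 and 15.6% called higher. At the GC contents of the Hcrtr1 probes (51.7% and 53.3%) the medians were both 0.22, with 18.6% and 16.8% called higher. At these GC contents, calls in the direction of Hcrt and Hcrtr1 were more frequent than at 35%. The differences of the probes themselves were 0.81 for Hcrt and 0.95 and 0.90 for Hcrtr1. Whether base composition had a part in them was not tested. Mchr1 stood on the other side of 0 from its class (55%), whose median was 0.24. With the GC trend removed within each array, the difference was 0.62 for Hcrt (adjusted p = 0.104), 0.74 and 0.67 for the Hcrtr1 probes (adjusted p = 0.127 and 0.137), 0.26 for Hcrtr2 (adjusted p = 0.354) and -0.47 for Mchr1 (adjusted p = 0.193).

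Dimness was also compared. Among the 1985 kept probes whose mean over the 6 arrays was within 0.25 log2 units of that of the brighter Hcrt probe, the median difference was 0.01, the quartiles were -0.36 and 0.34, and 7.2% were called higher. The Hcrt difference of 0.81 lay above that upper quartile. For the Hcrtr1 probes the upper quartiles of probes at the same level were 0.35 and 0.33, and both probes lay above them. Many probes lie above an upper quartile by definition, and whether dimness had a part in these differences was not tested.

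**Figure D4:**
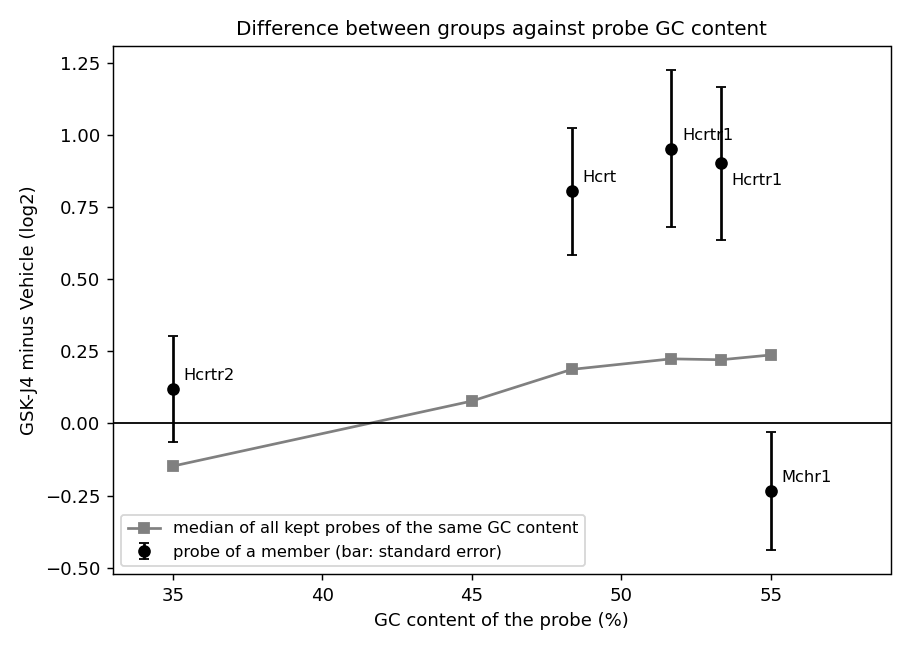
Difference between the groups (y axis, GSK-J4 minus vehicle, log2) of the 5 kept member probes against probe GC content (x axis, %), with standard errors (black), beside the median of all kept probes of the same GC content (grey). Hcrt and both Hcrtr1 probes lie above the grey line, and Mchr1 lies below it.

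Across the 6 arrays Hcrt and Pmch varied together, with a Pearson r of 0.91 between A_55_P2142341 and A_52_P418814, the latter well above background on 3 of the 6. This is a description of 6 points in which the groups also differ in slide and brightness. The r of Hcrt with the Hcrtr1 probes was 0.81 and 0.91, with Hcrtr2 (A_55_P2939543) 0.70 and with Mchr1 -0.57. In Pmch, in the brighter Hcrt probe and in both Hcrtr1 probes, GSK-J4 replicate 2 was the lowest array of its group. Of 26894 probes of other named genes that were well above background on all 6 arrays, those most like Hcrt were probes of Traf5, Rnf103, Ctu2, Slc52a3 and Xkr7, with r from 0.995 to 0.998.

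The genes around the system were read from 8 lists that held 67 genes, 66 of which had a kept probe. By the brightest probe of each gene, 2 of the 66 rose and 8 fell by the limma test, beside 8.6% higher and 7.56% lower among all genes. The median difference of the 66 was 0.01, against 0.04 for all genes. Calls below are those of the brightest probe of each gene. Of the 56 genes not called by it, 11 had another probe that was called, 3 with a probe called higher and 9 with a probe called lower. Of the 6 orexin neuron genes 0 were called and their median was 0.01. The largest differences among them were those of Pdyn, the dynorphin precursor made in orexin neurons, at -0.28 (adjusted p = 0.429), and of Nptx2, a synaptic pentraxin, at 0.21 (adjusted p = 0.277). The vehicle means of these genes ran from 9.08 (Nptx2) to 14.2 (Vgf), against 4.76 for the brighter Hcrt probe. How much of their RNA came from orexin neurons was not tested.

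Of the 6 MCH neuron genes 0 were called by their brightest probe, with a median of -0.03. Other probes were called for Nrxn3, a synaptic adhesion gene, with 3 of 6 probes lower. For Gad1, which makes GABA, 1 of 3 kept probes was called higher. Both genes are named because of these calls. The brightest Gad1 probe was at -0.25 (limma, adjusted p = 0.072), so the Gad1 probes did not share a direction. Tacr3, the neurokinin B receptor, was at 0.56 (adjusted p = 0.503) and Cartpt, the CART peptide precursor, at 0.52 (adjusted p = 0.0847). Vehicle means in this list ran from 5.99 (Tacr3) to 13.5 (Gad1), against 3.87 for Pmch. How much of this RNA came from MCH neurons was not tested. Of 9 other lateral hypothalamic peptides 8 were kept, Trh being the exception, and 0 were called. Their median was 0.24, and Gal, which encodes galanin, was at 0.56 (adjusted p = 0.0698). Of the 5 genes of the histamine neurons, a main target of orexin through Hcrtr2, 0 were called, and Hdc, which makes histamine, was at -0.51 (adjusted p = 0.197) and Hrh3, the histamine autoreceptor, at 0.23 (adjusted p = 0.237).

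Calls were made in the lists of receptor signalling, cilia and prohormone processing. Of 14 genes of orexin receptor signalling, 1 was called higher and 3 lower, with a median of 0.12. Kcnj6, a subunit of the G protein-gated potassium channel, read 8.29, 8.04 and 8.13 on the vehicle arrays and 7.24, 7.49 and 7.24 on the GSK-J4 arrays. All GSK-J4 arrays lay below all vehicle arrays, and the gene fell by 0.83 ± 0.11 (SE; limma, adjusted p = 0.0165). Kcnj3, its partner subunit, fell by 0.34 (adjusted p = 0.0359) and Gna11, a Gq-class subunit, fell by 0.33 (adjusted p = 0.041). Itpr3, an inositol trisphosphate receptor, rose by 0.33 (adjusted p = 0.0424). Of 10 genes of MCH receptor signalling, 0 were called higher and 3 lower, with a median of -0.10: Kcnj3 and Kcnj6, which are in both lists, and Gnai1, an inhibitory G protein subunit, which fell by 0.31 (adjusted p = 0.0415).

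Of 15 genes of the neuronal cilium and of receptor transport into it, where Mchr1 resides, 0 were called higher and 4 lower, with a median of -0.12. Ttc8, a subunit of the BBSome coat that moves receptors in and out of cilia, read 10.13, 10.04 and 10.12 on the vehicle arrays and 9.28, 9.42 and 9.31 on the GSK-J4 arrays. The groups were well apart, and the gene fell by 0.76 ± 0.08 (SE; limma, adjusted p = 0.0134). The BBSome genes Bbs7 and Bbs1 fell by 0.49 (adjusted p = 0.0239) and by 0.36 (adjusted p = 0.0353), and Gpr161, a ciliary receptor, fell by 0.35 (adjusted p = 0.0492). Bbs1 had another probe called higher, so its probes disagreed. Among 7 genes of prohormone processing 1 was called, Pcsk1n, the proSAAS inhibitor of a prohormone convertase, which rose by 0.35 (adjusted p = 0.0377).

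All 8 genes called lower had probes of at most 45% GC. With the GC trend removed, 4 genes were called lower and 2 higher: Kcnj6, Ttc8, Bbs7, Gpr161 and Itpr3 still passed, and Bbs9, another BBSome gene, was called higher at 0.36 (adjusted p = 0.0365), whereas Gna11, Kcnj3, Gnai1, Bbs1 and Pcsk1n did not. Leaving out any 1 of the vehicle arrays left 0 of these genes called.

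**Figure D5:**
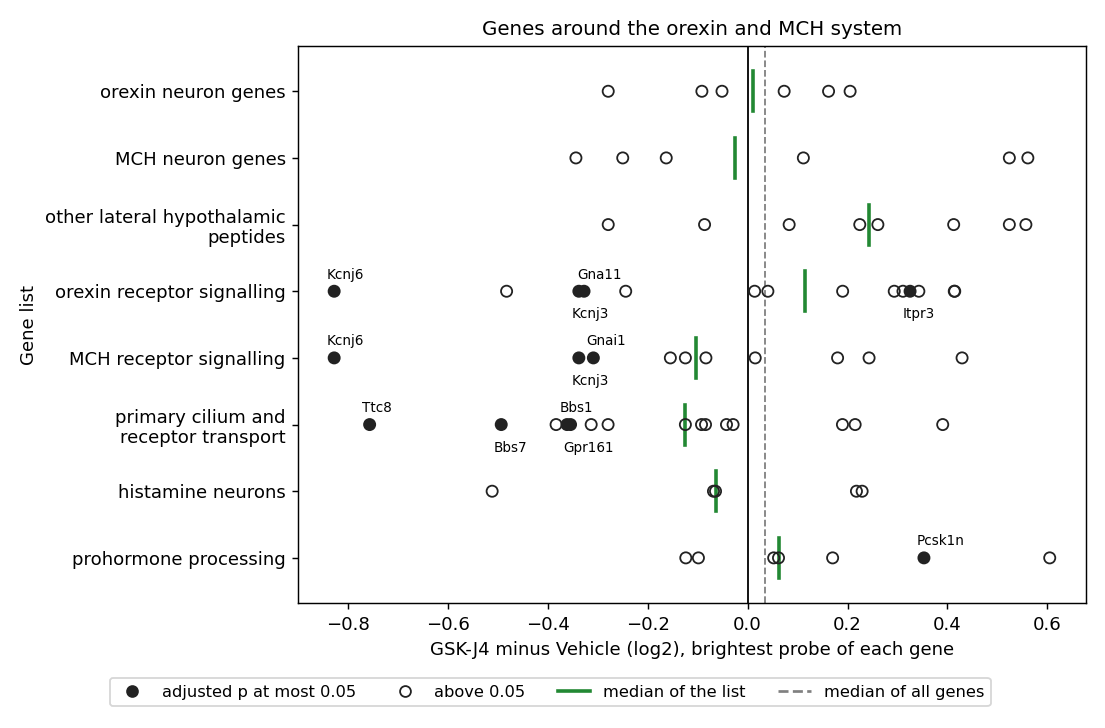
Difference between the groups (x axis, GSK-J4 minus vehicle, log2, brightest probe of each gene) for the kept genes of 8 lists around the orexin and MCH system (y axis); filled circles passed an adjusted p of 0.05 in limma, green bars are list medians and the dashed line is the median of all genes, 0.04. The genes called lower lie in the 3 lists of receptor signalling and cilia, with Kcnj6 at -0.83 and Ttc8 at -0.76.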

How the data were processed

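RNA of 6 mouse hypothalamus samples was labelled with Cy3 and hybridised to Agilent SurePrint mouse arrays, 1 sample per array. The authors extracted each probe's signal intensity with Agilent Feature Extraction (version 10.7.1.1 per the labels) and deposited log2 values that, per their methods, were quantile normalized in GeneSpring. The deposited log2 table was used for all normalized values, and the deposited intensity columns for signals and alternatives. A probe was kept if every array of 1 or both groups flagged it as well above background (34443 of 56605 probes). limma 3.58.1 in R 4.3.3 compared GSK-J4 with vehicle, with Benjamini-Hochberg adjustment over all kept probes and a threshold of 0.05. The steps were tested on simulated data. The number of arrays limits the precision. Every member probe is named; of each list, the genes past the threshold or else the 2 genes with the largest absolute difference; and the 5 probes most like Hcrt (those like Pmch are not given, since its probe was well above background on 3 of 6 arrays). Genes on which a result turns were named besides. Members and lists were chosen with earlier results of these data known. Marker lists covered neurons, medial hypothalamus, thalamus, telencephalon, pituitary, choroid plexus, astrocytes, oligodendrocytes, microglia and endothelium. A telencephalic marker is not reported here. Alternatives changed the normalization, background correction (normexp, offset 50), filter, probes per gene, variance model, test, threshold, GC correction, replicate block and arrays included. A run with no scaling between arrays was chosen after seeing the data. Coordinates are on mm9 as in the scanner files.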

Additional observations from a re-analysis of the deposited data

How the results depend on the processing

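The count of member probes called was 0 of 5, where 5788 of 34443 kept probes were called. With probes well above background on all 6 arrays it became 1, with 6164 of 30940 probes called. At 1.5-fold with an unadjusted p of at most 0.05 it was 3, a criterion that 1651 kept probes met higher and 2706 lower. It was 0 to 2 when 1 array was left out. The 2 came without GSK-J4 replicate 2, where 4165 of 34443 kept probes were called. Without scaling the member count was 2 (Hcrtr2 A_55_P2939543 and Mchr1, both lower), with 30406 of all kept probes called. It stayed 0 under the other alternatives, the methods' test without equal variances included (1 at their fold and unadjusted p threshold, 0 after Benjamini-Hochberg adjustment). The Hcrt difference of 0.81 had an adjusted p of 0.0491 with the filter on all 6 arrays, ranged from 0.60 to 1.04 with 1 array left out, and was -0.25 without scaling. For the Hcrtr1 probes these ranges were 0.72 to 1.15 (A_51_P209585) and 0.71 to 1.18 (A_55_P2155946), and the unscaled values -0.093 and -0.13. Hcrtr2 (A_55_P2939543) was at -0.0025 with 75th percentile scaling, -0.022 to 0.28 with 1 array left out (-0.022 without GSK-J4 replicate 3) and -0.92 without scaling. Mchr1 ranged from -0.43 to -0.03 with 1 array left out and was -1.29 without scaling. Of the probes with no test, Pmch was at 0.20 with normexp (offset 50) and -0.35 unscaled. Hcrtr2 A_52_P464729 was at -0.84 to 0.64 with 1 array left out and -1.23 unscaled.

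Over all kept probes, 2889 were called higher and 2899 lower. The count higher was 5036 with 75th percentile scaling, with which 3635 were lower, and 1793 without a filter. It was 56 with the methods' test after Benjamini-Hochberg adjustment and 1465 with the GC trend removed (2222 lower). At 1.5-fold with an unadjusted p of at most 0.05 it was 1651 (2706 lower), and with 1 array left out 1 to 2075. The count lower was 1723 with 1 probe per gene, 37 with the methods' test so adjusted and 4 to 2481 with 1 array left out. The methods state no adjustment, and by their test 9301 kept probes had an unadjusted p of at most 0.05. Without any 1 of the vehicle arrays 5 to 13 probes were called in all. The 10 list genes called became 5 without a filter, 0 with the methods' test after adjustment and 6 with the GC trend removed. They became 3 at 1.5-fold with that unadjusted p and 0 to 6 with 1 array left out. The cause of these moves was not tested.

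Same-numbered arrays did not deviate together (r = 0.007, 0.026 and 0.081), and numbers 1 and 3 but not 2 correlated best with their own. With the replicate number as a block, 0 member probes, 0 probes higher, 0 lower and 0 list genes were called, and the same 0 with the GC trend removed as well; the Hcrt difference stayed at 0.81 (adjusted p = 0.0941) and 0.62 (adjusted p = 0.135).

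Dim probes set the limits here: Pmch, 1 Hcrt probe and 2 Hcrtr2 probes were not well above background throughout, and treatment was carried by a slide of its own.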

Other observations

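Outside the orexin and MCH system, Pomc, the precursor of melanocyte-stimulating hormone, was called higher with GSK-J4, at 7.94 ± 0.13 on the vehicle arrays and 8.80 ± 0.23 on the GSK-J4 arrays (SD, n = 3 each), a difference of 0.85 (limma, adjusted p = 0.022), and 0.62 with the GC trend removed (adjusted p = 0.0391). By the brightest probe of each gene, 0 of the 6 other kept medial hypothalamic markers were called, with Kiss1 at 1.02 (adjusted p = 0.0571), while another probe of Ghrh was called higher. The thalamic marker Tnnt1 was called higher at 0.66 (adjusted p = 0.0339), and 0.42 with the GC trend removed (adjusted p = 0.0993). Among the telencephalic markers Neurod6 fell by 0.47 (adjusted p = 0.0335), a call lost with the GC trend removed (-0.32, adjusted p = 0.0854). The other telencephalic markers were not called by their brightest probes, with Drd1 at 0.72 (adjusted p = 0.0627) and Adora2a at 0.40 (adjusted p = 0.0688), the groups not overlapping in either, and another probe of Tbr1 was called higher. With the GC trend removed Adora2a was called higher (0.54, adjusted p = 0.0493). By the brightest probe, 0 of the 5 markers each of neurons, astrocytes, oligodendrocytes, microglia, endothelium and choroid plexus were called. Other probes of the neuronal markers Snap25 and Syt1 and of the astrocyte marker Slc1a3 were called lower, and of the astrocyte marker Gja1 higher.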
